A study of Mus musculus with 12 samples.

Results

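The 4 genes described here belong to the CD155 and nectin-2 immune checkpoint and were chosen by name from the measured panel: the ligands Pvr (CD155) and Pvrl2 (nectin-2, now named Nectin2) and the receptors Tigit and Cd96. They are 4 of the 750 genes analysed, and each was measured in all 12 samples. The RNA came from whole ascites of mice carrying ovarian cancer cells, so tumour cells, leukocytes and other peritoneal cells contributed to every value.

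CD155 and nectin-2 are cell-surface adhesion proteins of the nectin family that many tumour cells display. TIGIT and CD96 are receptors on T cells and natural killer (NK) cells that bind CD155, and TIGIT also binds nectin-2. TIGIT inhibits the lymphocyte that carries it, whereas the activating receptor CD226 competes for the same ligands.

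All 12 samples came from mice injected intraperitoneally with 5000000 tumour cells, from which cells were recovered on day 21, and RNA was made from 2000000 ascites cells. The labels give 4 groups of 3. FAKWT samples were untreated, and FAKKD samples were untreated and carried the tumour genotype KTFAKKD. FAKi samples were FAKWT tumours in mice given the focal adhesion kinase inhibitor VS4716 by gavage at 100 mg/kg, 2 times a day. VEH samples were FAKWT tumours in mice given the vehicle by gavage, also 2 times a day. The tumour cells are called KT in the sample titles and KMF in the design text. The genotype field of the 3 vehicle samples reads KTFAKKD where their titles read FAKWT, and the titles were followed. Host strain, sex and age are not in the labels, and nothing says whether the 3 samples of a group are separate mice, so p-values measure only the spread between these samples. The gene for focal adhesion kinase, Ptk2, was not among the 750 genes, so the genotypes could not be checked by it.

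The authors deposited normalized values on a log2 scale, and raising 2 to each value gave a whole molecule count times 1 factor per sample. Recovered totals ran from 588778 to 760152 counts per sample. The factor averaged 0.753 ± 0.085 (SD, n = 3) in FAKWT, 0.788 ± 0.094 in VEH, 1.17 ± 0.06 in FAKi and 1.46 ± 0.19 in FAKKD, so it moved with the groups, and what set it is not given in the sources used here. The median gene of the table was 0.95 log2 units higher in FAKKD than in FAKWT and 0.54 higher in FAKi than in VEH. Values are therefore given as deposited and again after each sample was shifted to the same panel median, which is called the panel scale. The panel holds immune genes, so its median may itself differ with the mix of cells, and what moved it was not tested.

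The sequences upstream of 3 of the 4 genes are shown so that the upstream bases of a ligand gene and of the receptor genes can be compared. Each is the 250 bases before the gene's start on its own strand, read 5′ to 3′, from RefSeq in build GRCm38.p6. Capitals mark matches to the motifs that were searched. Pvr is named only.
Nectin2 (Pvrl2), chr7:19749574-19749823, minus strand: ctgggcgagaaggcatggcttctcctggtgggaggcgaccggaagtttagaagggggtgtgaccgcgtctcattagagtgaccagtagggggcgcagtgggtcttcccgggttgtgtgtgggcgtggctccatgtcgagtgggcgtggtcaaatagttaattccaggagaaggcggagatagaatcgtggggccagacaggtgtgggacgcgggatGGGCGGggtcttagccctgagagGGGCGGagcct
Tigit, chr16:43664185-43664434, minus strand: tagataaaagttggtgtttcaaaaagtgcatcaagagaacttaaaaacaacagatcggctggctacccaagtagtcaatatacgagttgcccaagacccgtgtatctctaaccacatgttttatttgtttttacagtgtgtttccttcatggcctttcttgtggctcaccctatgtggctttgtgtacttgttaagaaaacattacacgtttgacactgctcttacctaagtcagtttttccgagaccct
Cd96, chr16:46120249-46120498, minus strand: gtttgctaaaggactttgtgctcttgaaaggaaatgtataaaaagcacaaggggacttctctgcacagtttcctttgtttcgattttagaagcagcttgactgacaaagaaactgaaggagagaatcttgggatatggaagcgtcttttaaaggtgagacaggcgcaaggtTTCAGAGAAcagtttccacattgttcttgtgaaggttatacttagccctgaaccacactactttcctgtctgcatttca
The search covered both strands for an AP-1 site (TGANTCA), a GC box (GGGCGG), an E-box (CACGTG), a cyclic AMP response element (TGACGTCA) and a GAS element (TTCNNNGAA). The Nectin2 stretch was 62.0% G and C and held 2 GC boxes, a motif present in 32.7% of 32851 mouse promoter stretches of the same length. The Tigit stretch was 40.0% G and C and held none of the 5 motifs. The Cd96 stretch was 41.2% G and C and held 1 GAS element, which 7.0% of the stretches hold. These matches describe letters only and show no binding. Tigit and Cd96 both lie on chromosome 16. Nectin2 and Pvr lie on the same chromosome with 6 protein-coding genes between them.

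Pvr, the ligand CD155, was lower in FAKKD than in FAKWT samples and lower with the inhibitor than with vehicle. In counts of Pvr molecules, the FAKWT samples held 702, 574 and 601 and the vehicle samples 533, 466 and 612. The inhibitor samples held 257, 222 and 288 and the FAKKD samples 140, 121 and 168. Every FAKKD and inhibitor sample lay below every FAKWT and vehicle sample, and every FAKKD sample lay below every inhibitor sample. The share of all genes whose counts separate was not computed. On the deposited values 76.8% of all genes did not overlap between FAKKD and FAKWT, and 66.9% between inhibitor and vehicle. The counting intervals (95%, exact Poisson, counting error only) of FAKKD and FAKWT did not meet: the highest FAKKD interval ended at 195.4 and the lowest FAKWT interval began at 528.0. Those of FAKKD and the inhibitor did meet, since the lowest inhibitor interval began at 193.8. On the deposited log2 scale the levels of Pvr were 8.87 ± 0.08 (SD, n = 3) in FAKWT, 8.71 ± 0.07 in VEH, 8.22 ± 0.26 in FAKi and 7.68 ± 0.07 in FAKKD.

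The deposited difference for Pvr between FAKKD and FAKWT was -1.19 ± 0.12 log2 units (SE), a 2.27-fold lower level (limma, adjusted p = 6.13e-06). Inhibitor minus vehicle was -0.49 ± 0.12 log2 units, 1.41-fold lower (limma, adjusted p = 0.00443). After the shift to the panel scale these differences were -2.24 ± 0.17 and -1.23 ± 0.17 (limma, adjusted p = 3.36e-07 and 7.25e-05). In a bulk sample, fewer CD155-bearing cells and less Pvr RNA per cell cannot be told apart.

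Pvrl2, the ligand nectin-2, was lower in FAKKD samples on both scales, but with the inhibitor its deposited level stood at that of the vehicle samples. FAKWT samples held 3595, 3416 and 2688 Pvrl2 counts and vehicle samples 2532, 2222 and 2801. They were 1732, 1670 and 1634 with the inhibitor and 1048, 842 and 1227 in FAKKD. By counts the inhibitor samples lay below all vehicle samples and above all FAKKD samples, a separation whose share over all genes was not computed. After the authors' factors the picture changed: the deposited log2 levels of Pvrl2 were 10.94 ± 0.05 (SD, n = 3) in both VEH and FAKi, 11.23 ± 0.13 in FAKWT and 10.54 ± 0.09 in FAKKD.

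The deposited FAKKD minus FAKWT difference for Pvrl2 was -0.69 ± 0.08 log2 units (SE), 1.61-fold lower, and the groups did not overlap (limma, adjusted p = 1.83e-05). Inhibitor minus vehicle was 0.00 with a 95% interval from -0.18 to 0.18 (limma, adjusted p = 0.993). The panel scale gave -0.74 ± 0.12 for the same comparison (limma, adjusted p = 3.26e-04), and after quantile normalization it gave -0.27 (limma, adjusted p = 0.0511). The inhibitor result for Pvrl2 therefore depended on how the samples were scaled, while the Pvr result passed on the deposited scale, the panel scale and after quantile normalization.

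**Figure D1:**
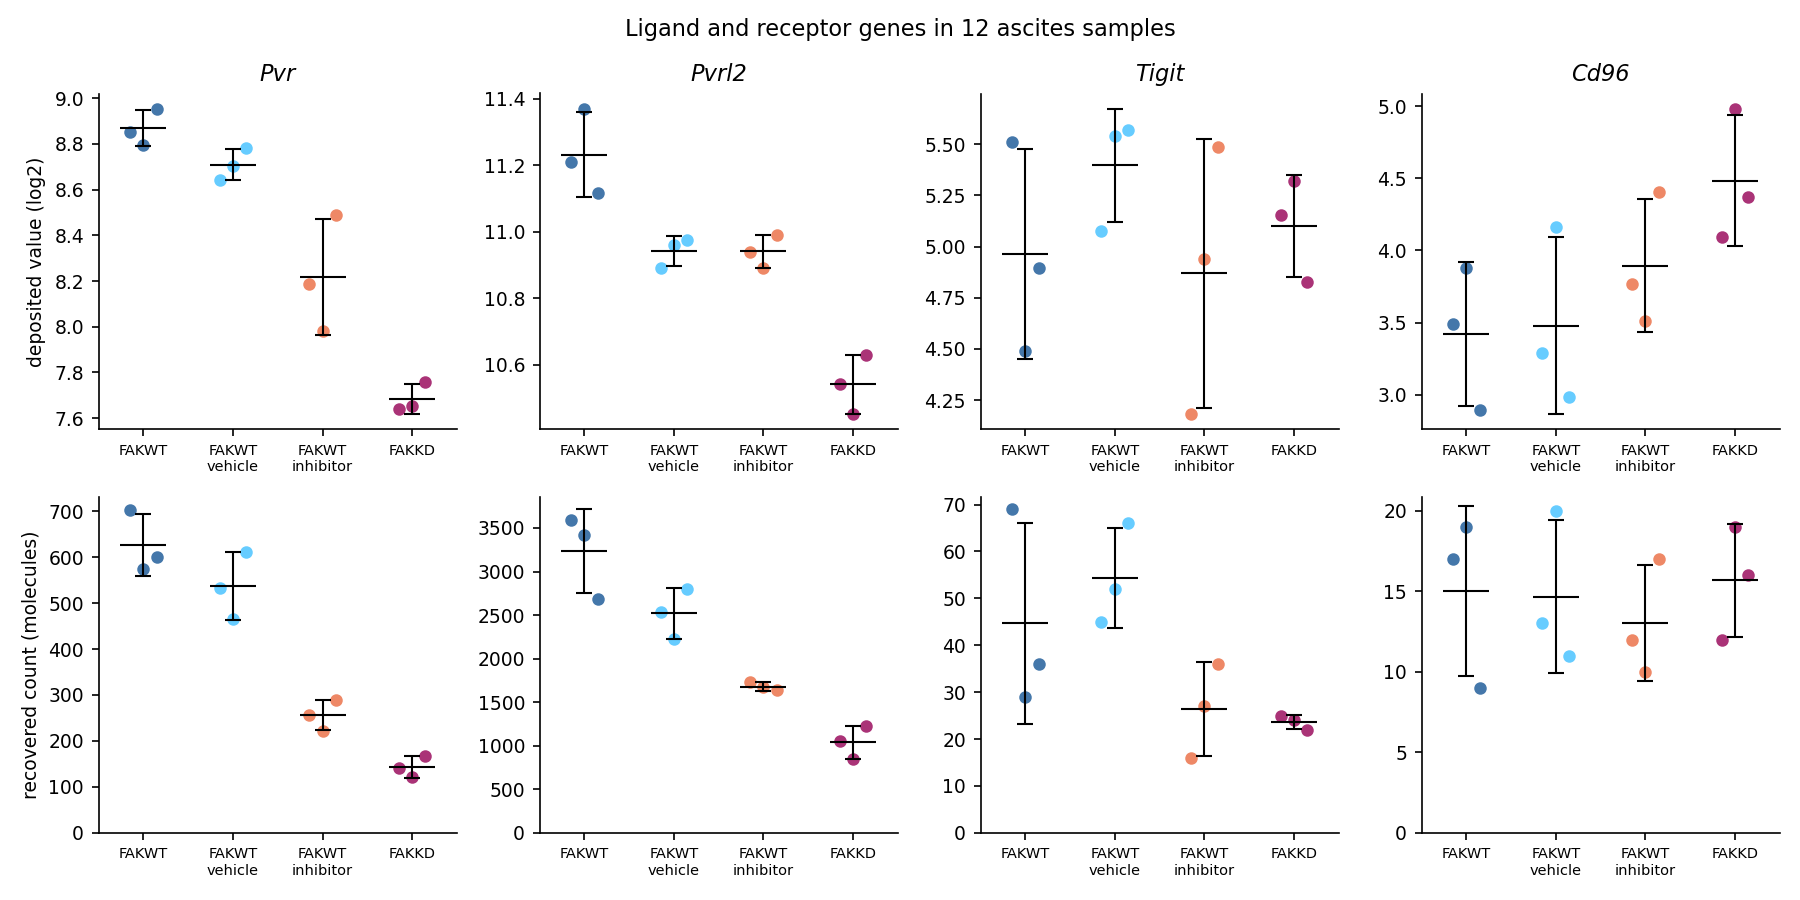
Deposited log2 level (upper row) and recovered molecule count (lower row, axis from 0) of Pvr, Pvrl2, Tigit and Cd96 in each of the 12 samples, with bars for the mean and SD of each group of 3. Pvr counts fall into a high set of FAKWT and vehicle samples (466 to 702) and a low set of inhibitor and FAKKD samples (121 to 288), whereas Cd96 counts lie between 9 and 20 in all 4 groups.

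Tigit, the inhibitory receptor for both ligands, had low counts that were lower in both FAKKD and inhibitor samples, without a deposited difference that passed. Tigit reached 69, 29 and 36 counts in FAKWT and 45, 52 and 66 with vehicle. They were 16, 27 and 36 with the inhibitor and 25, 24 and 22 in FAKKD. All FAKKD counts lay below all FAKWT counts and all inhibitor counts below all vehicle counts. The share of all genes whose counts separate in this way was not computed. On the deposited values, where 76.8% and 66.9% of all genes did not overlap, Tigit overlapped in both comparisons. Replicate 1 of FAKWT was the highest of the 12 and replicate 4 of FAKi the lowest. The deposited log2 levels were 4.96 ± 0.51 (SD, n = 3) in FAKWT, 5.40 ± 0.28 in VEH, 4.87 ± 0.66 in FAKi and 5.10 ± 0.25 in FAKKD, and FAKWT overlapped FAKKD.

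The deposited FAKKD minus FAKWT difference for Tigit was 0.14 ± 0.35 log2 units with a 95% interval from -0.62 to 0.90 (limma, adjusted p = 0.737). Inhibitor minus vehicle was -0.53 ± 0.35 with an interval from -1.29 to 0.23 (limma, adjusted p = 0.209). On the panel scale the differences were -0.92 ± 0.37 and -1.27 ± 0.37, and of these only the inhibitor comparison passed (limma, adjusted p = 0.0517 and 0.0143). Its call was lost without replicate 4 of FAKi (-0.93, adjusted p = 0.0688) and without replicate 9 of VEH (-1.13, adjusted p = 0.0551), and the FAKKD call was gained without replicate 2 of FAKWT (-1.18, adjusted p = 0.0261).

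Cd96, the other CD155 receptor, had very low counts that did not separate the groups. The counts were 17, 19 and 9 in FAKWT, 13, 20 and 11 with vehicle, 12, 10 and 17 with the inhibitor, and 12, 19 and 16 in FAKKD. The group sums of 45, 44, 39 and 47 overlapped in their counting intervals, and the variance of the 12 counts (14.8) was about equal to their mean (14.6), the ratio that counting error alone gives. That ratio was 8.05 for Tigit and 114.5 for Pvr, but at an equal relative spread it grows with the mean count. The mean was 37.25 for Tigit and 390.3 for Pvr, so the ratios are not directly comparable. The 12 Cd96 counts were pooled over 4 groups without the sample factors, and counts this low cannot show that the groups are equal. Only 77 of the 750 genes had a lower mean deposited level than Cd96, and negative control probes, which would show the panel's background, were not analysed here.

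On the deposited scale Cd96 nevertheless rose in FAKKD, from 3.42 ± 0.50 (SD, n = 3) to 4.48 ± 0.45, a difference of 1.06 ± 0.40 log2 units (SE) between groups that did not overlap (limma, adjusted p = 0.0301). The factor, which was higher in FAKKD samples, moved with this difference, and on the panel scale it was 0.01 ± 0.41 (limma, adjusted p = 0.99). The deposited call was also lost without replicate 1 of FAKWT (adjusted p = 0.0575), replicate 3 of FAKWT (0.116) or replicate 4 of FAKKD (0.114). Inhibitor minus vehicle was 0.42 ± 0.40 on the deposited scale and -0.33 ± 0.41 on the panel scale, and neither passed (limma, adjusted p = 0.387 and 0.553).

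Counted together on the deposited scale, 3 of the 4 genes passed between FAKKD and FAKWT, against 74.5% of all 750 genes, so the count itself is no result about these genes. By direction, 2 of 4 were lower, against 9.47% of all genes, and 1 was higher, against 65.1%. Groups that did not overlap were found for 3 of the 4 genes and for 76.8% of all genes. With the inhibitor 1 of 4 passed, against 59.7% of all genes, and it was lower, against 10.5%, while 49.2% of all genes were higher. Its samples were also the only ones of the 4 genes that did not overlap, against 66.9% of all genes. Lower calls on the panel scale were 2 of 4 in FAKKD, against 34.5%, and 3 of 4 with the inhibitor, against 28.8%.

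**Figure D2:**
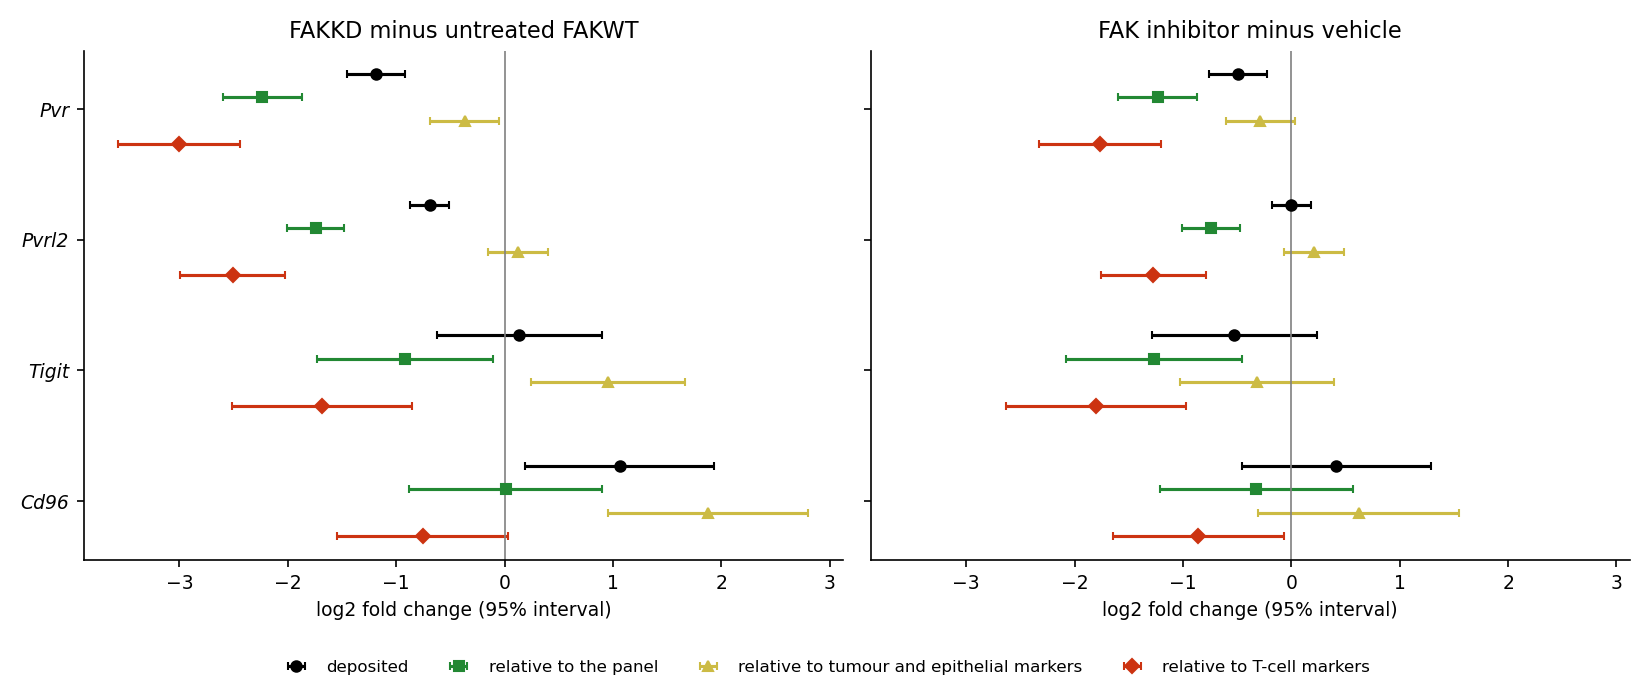
Log2 difference of each of the 4 genes with its 95% interval on 4 scales (as deposited, relative to the panel median, relative to 7 tumour and epithelial markers, and relative to 16 T-cell markers), for FAKKD minus FAKWT and for inhibitor minus vehicle. Pvr lies below 0 on the deposited and panel scales in both comparisons, while Cd96 in FAKKD moves from 1.06 as deposited to 0.01 on the panel scale.

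The order of the 4 deposited levels differed between the genes. Pvr ran from FAKWT through vehicle and inhibitor down to FAKKD, and of its neighbours FAKWT and vehicle did not pass (limma, adjusted p = 0.676), although their samples did not overlap, while FAKKD stood 0.53 log2 units below the inhibitor (-0.53 ± 0.12, limma, adjusted p = 0.00645), a comparison in which 30.0% of all genes passed. Pvrl2 had the same ends with vehicle and inhibitor level, and FAKKD was 0.40 units below the inhibitor (-0.40 ± 0.08, limma, adjusted p = 0.00354). Tigit ran from vehicle through FAKKD and FAKWT down to the inhibitor, and no neighbours passed. Cd96 ran from FAKKD through inhibitor and vehicle down to FAKWT, and no neighbours passed.

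Vehicle against untreated FAKWT served as the control comparison. By limma 0 of the 4 genes and 0.0% of all genes passed, with 93 of 750 genes at an unadjusted p under 0.05. Pvrl2 was among those 93: it was 0.29 ± 0.08 log2 units lower with vehicle in groups that did not overlap (unadjusted p = 0.0046, limma, adjusted p = 0.192). Pvr was -0.16 ± 0.12 between the same groups (limma, adjusted p = 0.676). Both ligands had groups that did not overlap, which 16.1% of all genes had. Against untreated FAKWT instead of vehicle, the inhibitor samples had a Pvrl2 difference of -0.29 ± 0.08 that passed (limma, adjusted p = 0.00867, where 64.3% of all genes passed), and a Pvr difference of -0.65 ± 0.12 (limma, adjusted p = 6.28e-04).

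The 2 manipulations were compared through the difference between them, FAKKD minus FAKWT less inhibitor minus vehicle. On the deposited scale it was -0.69 ± 0.17 log2 units for Pvr (limma, adjusted p = 0.0136) and -0.69 ± 0.12 for Pvrl2 (limma, adjusted p = 0.00232), so the FAKKD difference was the more negative for both ligands. A difference passed for 2 of the 4 genes, both lower, against 23.9% of all genes in either direction and 7.6% lower. For Tigit it was 0.66 ± 0.49 with an interval from -0.41 to 1.74, and for Cd96 0.65 ± 0.56 with an interval from -0.59 to 1.88, and neither passed (limma, adjusted p = 0.355 and 0.441). The panel scale gave -1.0 for both Pvr and Pvrl2 (limma, adjusted p = 0.00882 and 0.00196), where 26.0% of all genes passed. Relative to the 7 tumour and epithelial markers described below, it was -0.08 ± 0.21 for Pvr and -0.08 ± 0.18 for Pvrl2. Neither passed on that scale (limma, adjusted p = 0.732 and 0.708). The 2 comparisons have different controls, so the gap between the controls enters the difference. As deposited, vehicle minus FAKWT was -0.16 for Pvr and -0.29 for Pvrl2, and FAKKD minus inhibitor was -0.53 and -0.40.

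A ratio of 2 genes within a sample does not depend on the sample factor and shows only that they changed unequally. The log2 ratio of Pvr to Pvrl2 in the FAKWT samples was -2.36, -2.57 and -2.16, against -2.90, -2.80 and -2.87 in the FAKKD samples. It was -2.25, -2.25 and -2.19 with vehicle and -2.75, -2.91 and -2.50 with the inhibitor. In both comparisons the groups did not overlap, and the mean shifted by -0.49 log2 units, so the ratio was 1.41-fold lower in FAKKD and with the inhibitor. The exact permutation test gave p = 0.1 in each, the smallest that 3 against 3 samples allow. Against untreated FAKWT in place of vehicle, the inhibitor's shift was -0.36 with overlapping groups (exact permutation p = 0.2). Leaving out single samples gave shifts from -0.60 to -0.39 in FAKKD and from -0.60 to -0.40 with the inhibitor. The ratio of Tigit to Cd96 shifted by -0.93 and -0.94 log2 units, with overlapping groups in each (exact permutation p = 0.2).

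**Figure D3:**
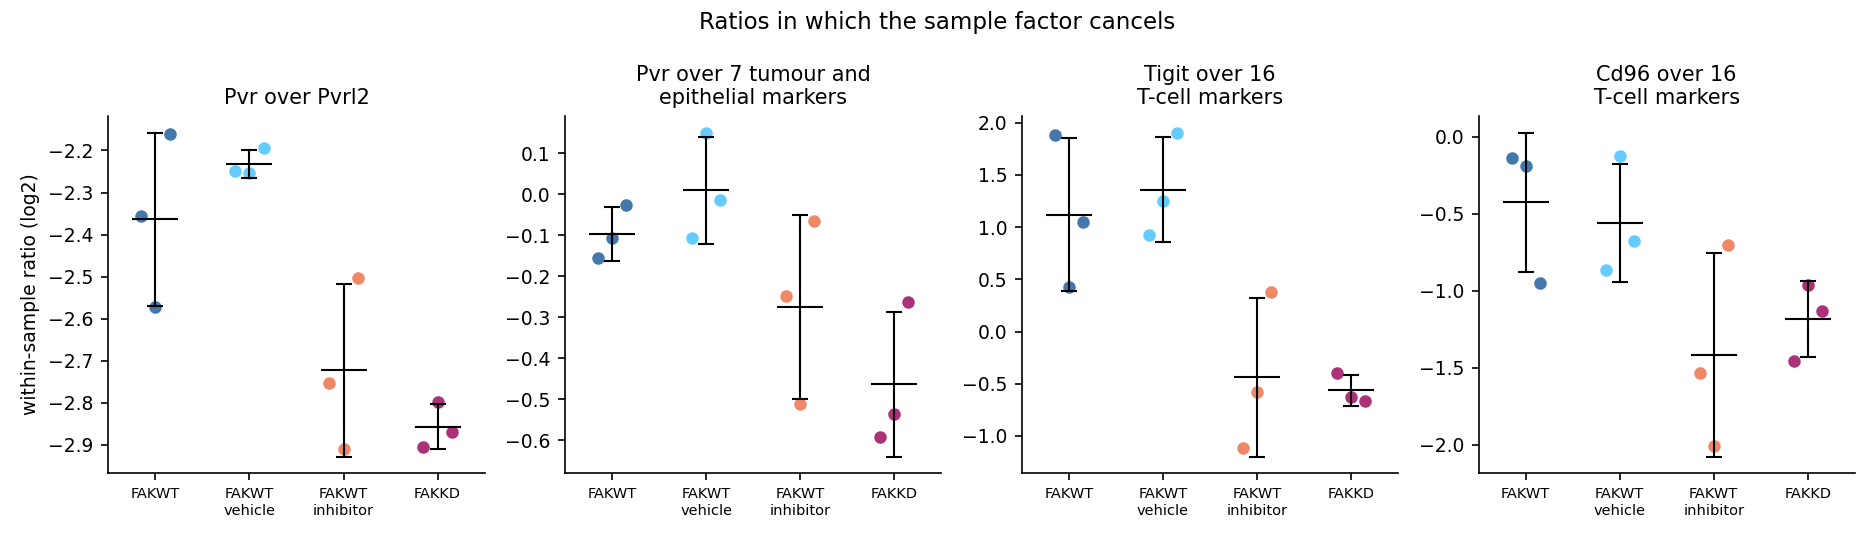
Log2 ratios within each sample of Pvr to Pvrl2, Pvr to the mean of 7 tumour and epithelial markers, Tigit to the mean of 16 T-cell markers and Cd96 to the same T-cell markers, as points per sample with the mean and SD of each group of 3. The Pvr to Pvrl2 ratio lies at -2.57 or above in all FAKWT and vehicle samples, and every FAKKD sample (-2.90 to -2.80) is below them.

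The ligands were set beside markers of tumour and epithelial cells, of which 7 of 16 listed were measured (Epcam, Cdh1, Msln, Muc1, Itgb4, Itga6 and Ceacam1). Between FAKKD and FAKWT, 5 of the 7 fell and 2 rose, where 9.47% of all genes fell and 65.1% rose. Their median was -1.07 log2 units against 0.95 for all genes. Epcam, an epithelial adhesion protein, fell by 1.70 and Muc1, a surface mucin, by 1.66. The 2 that rose were Itga6, with a mean log2 level from 11.8 to 12.8, and Ceacam1, from 9.2 to 9.6. With the inhibitor 3 fell, 3 rose and 1 did not pass, with a median of -0.17, where 10.5% of all genes fell and 49.2% rose. Epcam fell by 1.27, while Msln, the surface protein mesothelin, rose by 0.85 and Cdh1, E-cadherin, by 0.82. Relative to the panel, 6 of the 7 were lower in FAKKD and 5 with the inhibitor, where 34.5% and 28.8% of all genes were lower, and 0 were higher. On that scale Msln (0.11) and Cdh1 (0.08) did not pass with the inhibitor. The summed deposited level of the 7 ranged from 9198 to 9740 in FAKWT, 8307 to 9664 with vehicle, 10850 to 11880 with the inhibitor and 8518 to 11070 in FAKKD. No value in the table was at a count of 0.

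Relative to the mean of these 7 markers, Pvr was -0.37 ± 0.15 log2 units in FAKKD (limma, adjusted p = 0.0288) and -0.29 ± 0.15 with the inhibitor (limma, adjusted p = 0.0991). The first call was lost when any of replicates 2 and 3 of FAKWT or 3 and 4 of FAKKD was left out (-0.37, -0.33, -0.30 and -0.33), and when Ceacam1, which leukocytes also express, was dropped from the reference (-0.16, limma, adjusted p = 0.288). Itga6, the other marker that rose in FAKKD, stayed in that reference. A reference without Itga6 was not run, so the sign of Pvr against the markers that fell is not given by these values. Pvrl2 on this reference was 0.13 in FAKKD and 0.21 with the inhibitor (limma, adjusted p = 0.353 and 0.169). On this scale 92.9% of all genes passed in FAKKD and 66.0% with the inhibitor. Against Epcam alone the sign of Pvr turned, to 0.52 in FAKKD and 0.77 with the inhibitor (limma, adjusted p = 0.0131 and 0.00112). The markers thus moved with the ligands in part and unequally among themselves, and their part in the ligand differences was not tested.

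The receptors were set beside T-cell markers. On the deposited scale 16 of 16 measured T-cell markers rose in FAKKD, against 65.1% of all genes, and 15 of 16 rose with the inhibitor, against 49.2%. Their median was 1.72 log2 units in FAKKD and 1.31 with the inhibitor, against 0.95 and 0.54 for all genes. Cd3d and Cd3e, chains of the T-cell receptor complex, rose by 2.09 and 1.72 in FAKKD and by 1.55 and 0.99 with the inhibitor. Of the 16, 11 and 6 rose on the panel scale and 0 fell, where 436 and 349 of the 750 genes passed, 259 and 216 of them lower. Their summed deposited level was 206.4 to 293.7 in FAKWT, 216.4 to 350.3 with vehicle, 600.4 to 834.8 with the inhibitor and 802.2 to 1120 in FAKKD, so the groups did not overlap in either comparison.

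Relative to the mean of these T-cell markers, Tigit was lower in both comparisons. The log2 ratio of Tigit to the markers in the FAKWT samples was 1.88, 0.42 and 1.05, against -0.39, -0.63 and -0.67 in the FAKKD samples. It was 0.92, 1.25 and 1.91 with vehicle and -1.12, -0.58 and 0.38 with the inhibitor. The groups did not overlap, and the differences were -1.68 ± 0.39 log2 units in FAKKD and -1.80 ± 0.39 with the inhibitor (limma, adjusted p = 0.0013 and 0.00116). They passed also when any single sample was left out, with values from -2.03 to -1.30 and from -2.21 to -1.46. On this scale 54.9% of all genes were lower in FAKKD and 52.7% with the inhibitor, so a lower call was common. The median of all genes there was -0.87 and -0.74, and Tigit lay below it in both.

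Tigit also marks regulatory T cells, and 7 of 7 regulatory T-cell markers rose in FAKKD on the deposited scale (median 1.35) and 6 of 7 with the inhibitor (median 1.06), where 65.1% and 49.2% of all genes rose. Relative to the panel 0 of 7 and 2 of 7 were higher (limma), where 436 and 349 of the 750 genes passed, 259 and 216 of them lower. Foxp3, the transcription factor that defines these cells, rose by 1.70 and 1.06 as deposited, and was 0.65 and 0.32 on the panel scale without passing (limma, adjusted p = 0.0598 and 0.372). Against the regulatory T-cell markers as the reference, Tigit was -1.12 in FAKKD and -1.52 with the inhibitor (limma, adjusted p = 0.028 and 0.006). Against T-cell and NK markers together it was -1.34 and -1.45 (limma, adjusted p = 0.0068 and 0.0058). Cd96 relative to the 16 T-cell markers was -0.76 ± 0.37 and -0.86 ± 0.37, and neither passed (limma, adjusted p = 0.0894 and 0.0582). Both receptors are also carried by NK cells, of whose markers 14 of 17 rose in FAKKD (median 1.21, against 0.95 for all genes) and 4 of 17 with the inhibitor (median 0.57, against 0.54) on the deposited scale. The panel scale left 0 of them higher and 1 lower in FAKKD, and 1 higher and 2 lower with the inhibitor. There 34.5% and 28.8% of all genes were lower.

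**Figure D4:**
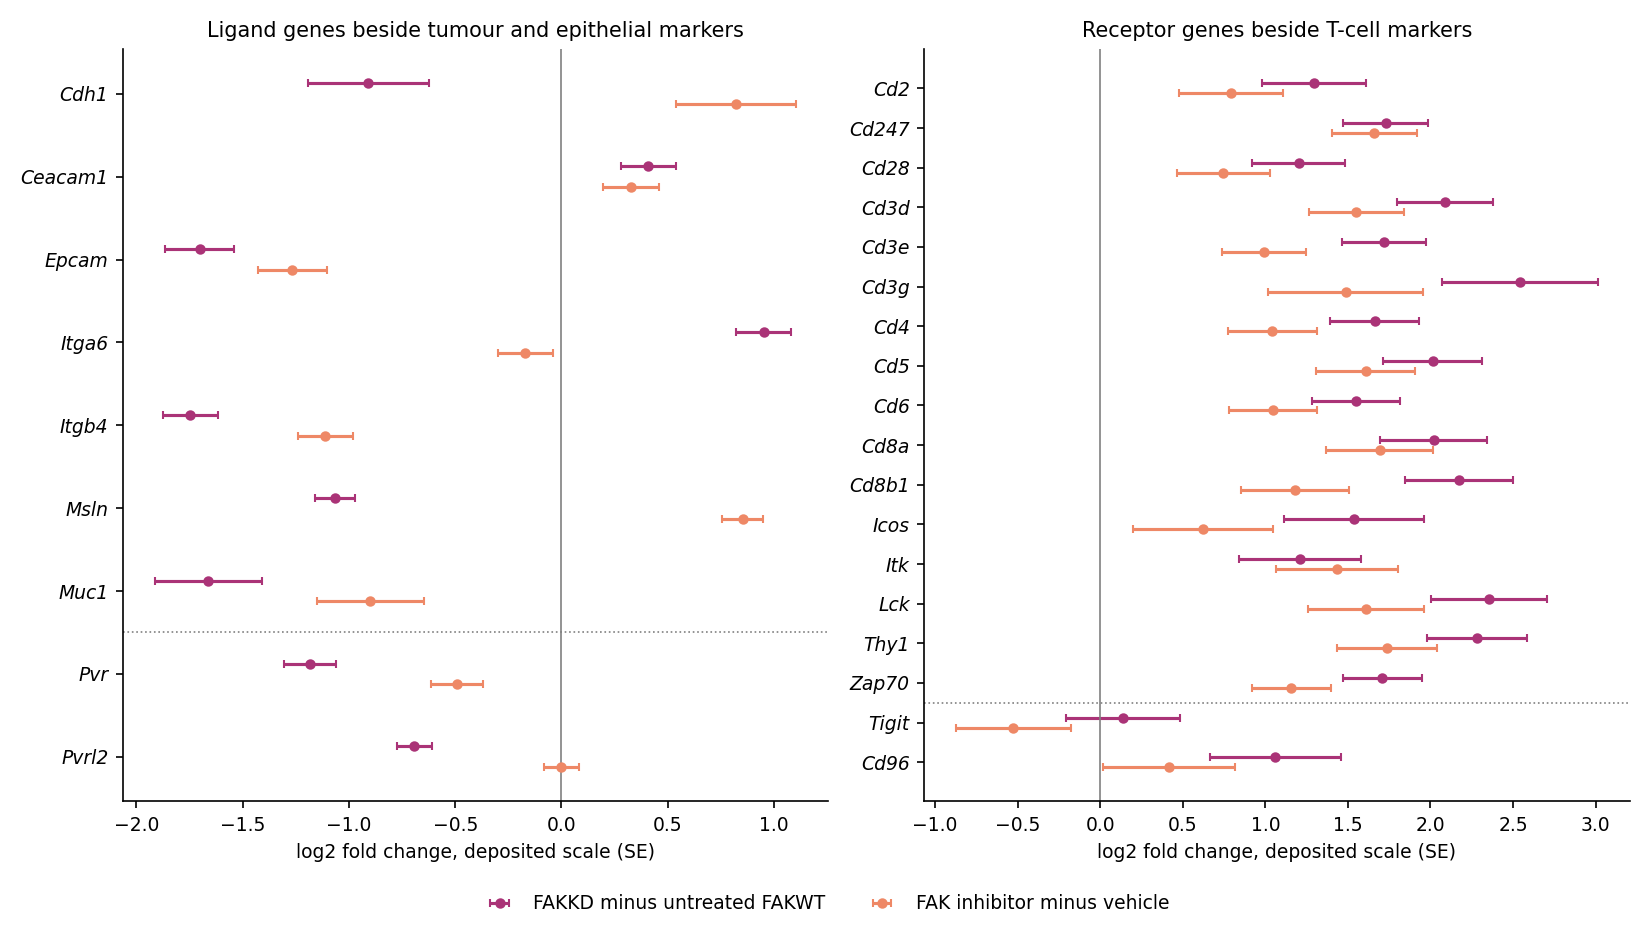
Deposited log2 difference with its SE for the 4 genes beside measured tumour, epithelial and T-cell markers, in FAKKD minus FAKWT and inhibitor minus vehicle. Pvr and Pvrl2 lie below 0 in FAKKD with 5 of the 7 tumour and epithelial markers, among them Epcam (-1.70), and 2 of the 7 lie above 0. Tigit (0.14) lies below the T-cell markers Cd3d (2.09) and Cd3e (1.72).

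Other genes of the ligand and receptor family were not analysed here: of 15 listed names only the 4 were in the table, so CD226, the activating receptor, has no value. Of 16 listed signalling partners of TIGIT, CD96 and CD226, 7 were measured. Among the 7 is Itgb3, a chain of an integrin that binds the ligand CD155. In FAKKD 6 rose and 1 fell on the deposited scale, with a median of 1.82 log2 units, where 65.1% of all genes rose and 9.47% fell. With the inhibitor 5 rose, 1 fell and 1 did not pass, with a median of 1.16, where 49.2% of all genes rose and 10.5% fell. Counts on the panel scale were 3 higher and 2 lower in FAKKD, and 3 and 3 with the inhibitor. There 436 and 349 of the 750 genes passed, 259 and 216 of them lower.

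Inpp5d, the phosphatase SHIP1 that TIGIT's tail recruits, was counted 84, 109 and 99 times in the FAKWT samples and 213, 129 and 200 times in the FAKKD samples, and rose by 1.82 ± 0.20 log2 units in FAKKD and 1.16 ± 0.20 with the inhibitor (limma, adjusted p = 9.56e-06 and 3.64e-04) as deposited. Its panel-scale difference passed only in FAKKD (0.77 and 0.42, limma, adjusted p = 0.00276 and 0.0714). Lck, a kinase of T-cell receptor signalling, rose by 2.35 and 1.61 as deposited, and by 1.30 and 0.87 on the panel scale, and it is also on the T-cell list. Itgal and Itgb2, the chains of the lymphocyte integrin LFA-1 with which CD226 associates, rose by 1.83 and 1.26 in FAKKD and by 1.67 and 0.39 with the inhibitor as deposited. Relative to the panel neither passed in FAKKD (0.78 and 0.20, limma, adjusted p = 0.0594 and 0.217), and with the inhibitor Itgal was higher (0.93, adjusted p = 0.0347) but Itgb2 lower (-0.35, adjusted p = 0.0469). Syk, a kinase also used by myeloid cells, rose by 1.92 and 1.79 as deposited and by 0.86 and 1.05 on the panel scale. Fyn, a kinase that phosphorylates CD226 and TIGIT, rose by 0.68 in FAKKD and was 0.02 with the inhibitor as deposited (limma, adjusted p = 1.01e-04 and 0.866), but its direction turned on the panel scale, where it was lower in both (-0.38 and -0.72, limma, adjusted p = 0.00626 and 9.08e-05).

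Itgb3, the integrin beta-3 chain that pairs with the alpha-v chain and binds CD155 in cell adhesion, was the list's member that fell on the deposited scale. The FAKWT samples held 1012, 864 and 843 counts and the FAKKD samples 188, 121 and 260. They were 699, 656 and 784 with vehicle and 248, 256 and 244 with the inhibitor. The groups did not overlap in either comparison, which on the deposited values held for 76.8% and 66.9% of all genes. The deposited differences were -1.37 ± 0.15 and -0.93 ± 0.15 log2 units (limma, adjusted p = 9.55e-06 and 2.27e-04). The panel-scale differences were -2.42 and -1.68. Markers of macrophages and monocytes, which can supply several of these partners, rose in 14 of 15 cases in FAKKD and 10 of 15 with the inhibitor as deposited, where 65.1% and 49.2% of all genes rose. The panel scale had 9 of them higher and 1 lower in FAKKD, and 6 higher and 4 lower with the inhibitor. On that scale 436 and 349 of the 750 genes passed, 259 and 216 of them lower. The part of these markers' cells in the partners' values was not tested.

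The genes whose pattern over the 12 samples was most like each member were found by Pearson's r on the panel scale, as a description. The 12 points share the panel shift and the 4 group means, and 131 of 561 other genes had an r of at least 0.9 with Pvr, and 120 with Pvrl2. For Pvr the 3 highest were Cd47 (r = 0.995), which encodes a surface protein that restrains phagocytosis, Hif1a (0.993), the hypoxia factor, and Yy1 (0.988), a transcription factor. On the deposited values Hif1a was the most alike (r = 0.967), whereas the r of Cd47 was -0.47 and that of Yy1 -0.65. For Pvrl2 they were Yy1 (0.993), Col4a1 (0.992), a basement membrane collagen, and Egfr (0.987), the epidermal growth factor receptor. On the deposited values Col4a1 was first (0.94), and the r of Yy1 was -0.34.

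For Tigit the 3 highest were Pdcd1 (r = 0.885), the inhibitory receptor PD-1 of T cells, Ccl19 (0.873), a chemokine that attracts T cells and dendritic cells, and Socs3 (0.87), an inhibitor of cytokine signalling. On the deposited values their r with Tigit was 0.61, 0.57 and 0.40. No gene reached 0.9 with Tigit or Cd96. For Cd96 they were Siglec1 (0.803), a macrophage receptor, Gzma (0.749), a granzyme of cytotoxic cells, and Cxcl14 (0.715), a chemokine. Between the members, r was 0.984 for Pvr and Pvrl2 on the panel scale, 0.875 on the deposited values and 0.726 after each group's mean was taken out. Tigit and Cd96 had an r of 0.323 on the panel scale, and the low counts of Cd96 limit it.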

How the data were processed

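RNA of mouse ascites cells in 12 samples was counted on a NanoString panel, which holds 770 immune genes per the labels' design text, and 750 of them were analysed here. The authors normalized the counts and deposited log2 values. Which software, background step and reference genes they used is not given in the sources used here. Taken out of log2, each sample's values were whole counts multiplied by 1 factor (100% of genes, tolerance 0.01). The recovered counts were used only as descriptions, with exact Poisson intervals (95%, counting error only). Counting error was largest for the 148 genes with a mean count under 20, which include Cd96. The count profiles of replicates differed beyond counting error, with a chi-square of 8.35 to 59.6 per degree of freedom over genes.

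Tests used limma 3.58.1 in R 4.3.3 on the deposited log2 values, with 4 group means in 12 samples (lmFit, contrasts.fit, eBayes with trend), two-sided, and Benjamini-Hochberg adjustment over 750 genes at 0.05. No filter or pseudocount was applied. The same fit followed a shift of each sample to a common panel median, or to a common mean of tumour or T-cell markers. Within-sample ratios were compared by two-sided exact permutation tests. Fits were tested on simulated data. Figures used matplotlib 3.10.9.

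All 4 symbols matched a RefSeq gene table (GRCm38.p6), in which Pvrl2 is Nectin2. That table also gives Pvr as an older synonym of Nectin2, but the panel has a row for each. The members, marker lists and tests were chosen with earlier results of these data known. The text names the 4 members, the measured signalling partners, up to 4 genes of a marker list in its order and the 3 genes most like each member. Ceacam1 and Itga6 were singled out after their values were seen, and Itgb4 is named only as a member of its list.

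Alternatives were quantile normalization, the total of recovered counts, no trend, filters on low genes, other controls, other marker references, leaving out each sample and the replicate number as a block. The replicate numbers did not pair the samples. The scaling to recovered totals, the filter on a mean count of at least 20, the references without Ceacam1 or on regulatory T cells, the within-sample ratios and the repeats of the panel and marker scales were added after seeing the data.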

Additional observations from a re-analysis of the deposited data

Results flagged for a closer look

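Pvr and Pvrl2 are listed here because the difference between the 2 comparisons was itself tested and passed. FAKKD minus FAKWT less inhibitor minus vehicle was -0.69 log2 units for Pvr (limma, adjusted p = 0.0136), with -1.19 in FAKKD and -0.49 with the inhibitor. It was -0.69 for Pvrl2 (limma, adjusted p = 0.00232), with -0.69 in FAKKD and 0.00 with the inhibitor. Both passed when any 1 of the 12 samples was left out, with adjusted p from 0.00704 to 0.0358 for Pvr and from 0.00192 to 0.00837 for Pvrl2. With the replicate number as a block, neither passed (adjusted p = 0.192 and 0.189). Relative to the tumour and epithelial markers the difference was -0.08 for both genes, and neither passed (limma, adjusted p = 0.732 and 0.708). The gap between the 2 controls is part of the deposited difference. Vehicle minus FAKWT was -0.16 for Pvr and -0.29 for Pvrl2, and FAKKD minus inhibitor was -0.53 and -0.40.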

How the results depend on the processing

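Of 545 recomputed values, 484 kept their direction and side of the threshold, or for counts of genes stayed within 1.5 times. The shifts of the Pvr to Pvrl2 ratio were held the same if they kept their sign and moved by less than the larger group SD. The FAKKD and inhibitor differences of Pvr and the FAKKD difference of Pvrl2 kept direction and side under every alternative run on the deposited scale. Tigit, FAKKD minus FAKWT, changed sign on the panel scale (-0.92), after quantile normalization (-0.996), on the total of recovered counts (-0.88) and with FAKWT and vehicle together as control (-0.08). Cd96 in FAKKD was 0.009 on the panel scale, 0.044 on recovered totals and -0.002 after quantile normalization. Cd96 with the inhibitor was -0.33, -0.20 and -0.17 on those scales, and vehicle minus FAKWT -0.058, -0.052 and -0.060. Pvrl2 with the inhibitor passed on the panel scale (-0.74), on recovered totals (-0.62) and against untreated FAKWT (-0.29). Tigit with the inhibitor passed on the panel scale (-1.27), after quantile normalization (-1.13) and on recovered totals (-1.14). Taken from the panel scale, quantile normalization gave -0.996 for Tigit in FAKKD (now passing), -0.002 for Cd96 in FAKKD and -0.27 for Pvrl2 with the inhibitor (no longer passing). Against Epcam, Pvr was 0.52 and 0.77 and Pvrl2 1.01 and 1.27, both passing; without Ceacam1 in the reference, FAKKD gave -0.16 for Pvr and 0.33 for Pvrl2 (passing). At an unadjusted p, 93 genes passed between vehicle and FAKWT, Pvrl2 (-0.29) among them, and 284 for the difference. The causes were not tested.

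Leaving out each sample gave ranges of -0.10 to 0.41 for Tigit and 0.80 to 1.29 for Cd96 in FAKKD, -0.026 to 0.024 for Pvrl2 with the inhibitor, and -0.29 to 0.31 for Cd96 between vehicle and FAKWT. On the panel scale they were -1.18 to -0.58 for Tigit and -0.29 to 0.22 for Cd96 in FAKKD, and -1.63 to -0.93 and -0.64 to 0.009 with the inhibitor. Against tumour markers Pvr ran from -0.47 to -0.30 in FAKKD and -0.39 to -0.17 with the inhibitor. Against T-cell markers Cd96 ran from -1.02 to -0.61 and from -1.21 to -0.56. Vehicle minus FAKWT called 0 to 4 genes, 4 of them without vehicle replicate 9.

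Same-numbered samples of different groups correlated from -0.22 to 0.35 (7 pairs) and others from -0.46 to 0.34 (47 pairs), and each main comparison shares 1 number, so the numbers do not pair the samples. With the replicate block, 311 genes passed in FAKKD in place of 559, 275 with the inhibitor in place of 448 and 0 for the difference in place of 179. Cd96 was then 1.18 in FAKKD (adjusted p = 0.0847) and -0.28 with the inhibitor, and the differences of Pvr (-0.70) and Pvrl2 (-0.56) did not pass. A filter on the lowest 25% of genes, or on a mean count of 20, removes Cd96 and gives no value for it. Low counts limit Tigit and Cd96 in every comparison.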
